A study of Mus musculus with 4 samples.

Results

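The genes of the immune checkpoints were followed in CD11b+Ly6g+ myeloid-derived suppressor cells (MDSCs) sorted from the lungs of mice in which a pre-metastatic niche (PMN) had been induced. The set was a fixed list of 10 gene symbols, and each of the 10 was found on 1 row among the 54532 genes of the count table. It holds 5 ligands (Cd274, Pdcd1lg2, Cd80, Cd86 and Lgals9) and 5 receptors (Pdcd1, Ctla4, Havcr2, Lag3 and Tigit). All 10 had at least 10 counts in at least 1 library and stayed in the 16369 genes tested.

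The mRNA libraries were 4, 1 for each group of C57BL/6 mice aged 6 to 8 weeks: control (Ctrl), TP5, sFD17 and FR17. Every group, the control included, was given 300 μl per mouse of melanoma-conditioned medium (MCM, from the mouse line B16F10) intraperitoneally for 10 days, and 100000 B16F10 cells were placed in the tail vein on day 7. The peptides were given under the skin at 40 μM/kg per day from day 3, and the lungs were collected on day 10. TP5 is thymopentin, an immunoregulatory pentapeptide. FR17 joins TP5 through a linker cut by the protease MMP2 to a peptide that assembles into a sheet in the lung, and sFD17 is built in the same way with a scrambled pentapeptide, so that it assembles without the bioactivity of TP5. The cells of 10 to 12 mice were pooled into each library. The gate rests on 2 surface proteins, which neutrophils carry together, so the library describes a sorted population and not a single cell type. With 1 library per group, a difference below is a difference between 2 libraries, it has no replicate check and no test of the treatments, and its interval covers counting error only.

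Immune checkpoints are pairs of surface proteins that brake or release T cells. PD-L1 (Cd274) and PD-L2 (Pdcd1lg2) on myeloid or tumour cells bind PD-1 (Pdcd1) on T cells and dampen their signalling. CD80 (Cd80) and CD86 (Cd86) on antigen presenting cells drive T cells through CD28 and are captured by CTLA-4 (Ctla4), an inhibitory competitor that regulatory T cells carry at high level. Galectin-9 (Lgals9) is a ligand of TIM-3 (Havcr2), LAG-3 (Lag3) binds MHC class II and other ligands, and TIGIT (Tigit) binds the poliovirus receptor. PD-L1 is one of the molecules by which MDSCs are known to restrain T cells.

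The libraries held 17132880 counts for Ctrl, 17165184 for TP5, 15543071 for sFD17 and 19638228 for FR17. Levels are given as CPM, counts relative to the library total on the usual scale, after TMM scaling of the totals, in which 3 counts, the floor for a gene without counts, correspond to 0.131 to 0.227 CPM. Itgam, the gene of CD11b, was read at 381, 370, 433 and 302 CPM in Ctrl, TP5, sFD17 and FR17, and Ly6g at 73.1, 97.8, 111 and 90.7 CPM. Both genes of the gate were thus present in all 4 libraries. The 12 neutrophil markers, summed, were highest in sFD17, at 1.31 times the control, with TP5 at 1.10 and FR17 at 0.898 times. The same sorted libraries also held markers of lymphocytes, dendritic cells and macrophages, which are given beside the genes they accompany.

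Scaled for the gene length in the table, 3 ligands led the control library. Per kilobase, Cd274 had 88.2 CPM, Cd80 52.3, Lgals9 51.9 and Cd86 11.6 CPM. Havcr2 led the receptors with 17.9 CPM per kilobase, above Cd86. Pdcd1lg2 with 3.53, Ctla4 with 3.18 and Lag3 with 3.09 CPM per kilobase lay close together, and Tigit with 1.03 and Pdcd1 with 0.521 were lowest. The counting intervals of the neighbours Cd80 and Lgals9 overlapped, as did those of Pdcd1lg2, Ctla4 and Lag3, so that these orders are not resolved at this depth. The table gives Pdcd1lg2 a length of 1645 bases, against 1961 exon bases in GENCODE M21, so its value per kilobase is less certain. Cd274 was the highest of the 10 in each of the 4 libraries. Its lead was smallest in FR17, at 49.8 against 40.0 CPM per kilobase for Lgals9.

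**Figure D1:**
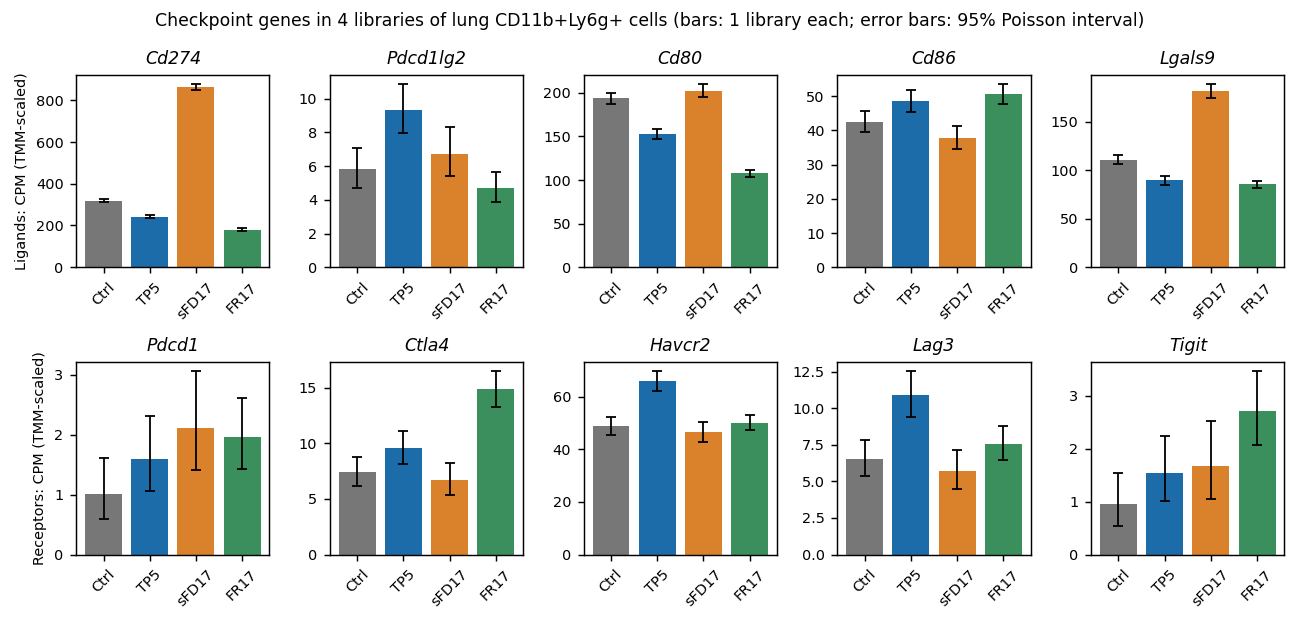
Level of each checkpoint gene in the 4 libraries, in CPM after TMM scaling, with ligands in the upper row and receptors in the lower row; each bar is 1 library and the error bar is its exact 95% Poisson interval, which covers counting error only. Cd274 and Lgals9 are highest in sFD17, Ctla4 and Tigit in FR17, and Pdcd1lg2, Havcr2 and Lag3 in TP5.

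Cd274, the main ligand of PD-1, had the largest range of the 10 over the libraries on the log2 scale. It had 5399 counts (320 CPM) in Ctrl, 4253 (242 CPM) in TP5, 11398 (864 CPM) in sFD17 and 4144 (181 CPM) in FR17. The sFD17 library stood alone above the control, while TP5 and FR17 lay below it, FR17 lowest. Against Ctrl the log2 fold change was 1.43 in sFD17 (95% counting interval 1.39 to 1.48), -0.40 in TP5 (-0.46 to -0.34) and -0.82 in FR17 (-0.88 to -0.77). Cd274 lies on chromosome 19 (GRCm38, 29367455 to 29388095, forward strand). Of its 3622 exon bases, 511 are shared with the gene AC119228.1 on the opposite strand. The strand setting of the counting is not given in the sources used here, so reads of the pair cannot be told apart in the shared bases, and no counts of that gene were used here.

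Because neutrophil markers were also highest in sFD17 after scaling, Cd274 was set against these within each library. Per 1000 counts on the 12 neutrophil markers, 9.54 counts fell on Cd274 in Ctrl, 6.55 in TP5, 19.6 in sFD17 and 6.00 in FR17. On this scale the sFD17 library remained 2.06 times the control, TP5 was at 0.687 times and FR17 at 0.629 times. The order of the 4 libraries was the same by both scales for Cd274. This comparison was added after the values had been seen.

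Lgals9, galectin-9, was also highest in sFD17, by a smaller size than Cd274. It had 1873 counts (111 CPM) in Ctrl, 1569 (89.4 CPM) in TP5, 2399 (182 CPM) in sFD17 and 1960 (85.4 CPM) in FR17. Again sFD17 was above the control, and TP5 and FR17 were below it with overlapping counting intervals. The log2 fold changes were 0.71 in sFD17 (0.63 to 0.80), -0.31 in TP5 (-0.41 to -0.21) and -0.38 in FR17 (-0.47 to -0.28). Lgals9 lies on chromosome 11 (GRCm38, 78962974 to 78984946, reverse strand).

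The promoters of the 2 ligands that were higher together in sFD17 are shown because interferon is the best known inducer of Cd274. RefSeq windows of the 250 bases before the transcript start (GRCm38.p6) were found for 8 of the 10 genes. Capitals mark an interferon-stimulated response element, searched on both strands as GAAA, any 2 bases and GAAA, and the sequences read 5′ to 3′ on the strand of the gene, at chr19:29367188-29367437 for Cd274 (forward) and chr11:78984925-78985174 for Lgals9 (reverse).
Cd274: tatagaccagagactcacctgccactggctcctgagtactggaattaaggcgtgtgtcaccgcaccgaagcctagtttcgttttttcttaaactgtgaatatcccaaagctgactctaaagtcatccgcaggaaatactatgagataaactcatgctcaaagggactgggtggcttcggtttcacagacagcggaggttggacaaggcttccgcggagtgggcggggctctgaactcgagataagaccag
Lgals9: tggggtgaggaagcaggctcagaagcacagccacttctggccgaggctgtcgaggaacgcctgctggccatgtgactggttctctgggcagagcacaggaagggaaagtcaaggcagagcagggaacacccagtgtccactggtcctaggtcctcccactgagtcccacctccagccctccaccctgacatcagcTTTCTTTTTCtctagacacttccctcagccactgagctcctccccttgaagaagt

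The Lgals9 window held 1 such match, on the strand opposite to the gene and starting 55 bases before the transcript start. No other member's window held one, among 978 of 32851 windows (2.98%) in the whole table. The gamma-activated site, searched as TTCNNNGAA, which reads the same on both strands, was in none of the 8 windows and in 2306 of all windows (7.02%). A match is a stretch of letters and not a bound site, and its absence says only that these letters are not in the 250 bases. Cd86 and Lag3 are named only.

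Cd80, one of the CD28 and CTLA-4 ligands, was lowest in FR17. It had 3270 counts (194 CPM) in Ctrl, 2685 (153 CPM) in TP5, 2675 (203 CPM) in sFD17 and 2471 (108 CPM) in FR17. The FR17 library was below the other three, TP5 was between, and the intervals of sFD17 and Ctrl overlapped. The log2 fold change was -0.85 in FR17 (-0.92 to -0.77), -0.34 in TP5 (-0.41 to -0.26) and 0.07 in sFD17, whose interval of -0.01 to 0.14 includes 0. Its sign in sFD17 was negative by library size alone and relative to neutrophil markers. Cd80 lies on chromosome 16 (GRCm38, 38455561 to 38496335, forward strand).

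Cd86, the other ligand of CD28 and CTLA-4, did not follow Cd80. It had 718 counts (42.5 CPM) in Ctrl, 852 (48.6 CPM) in TP5, 499 (37.8 CPM) in sFD17 and 1163 (50.7 CPM) in FR17. The range over the libraries was narrow, with FR17 and TP5 highest and sFD17 lowest. The log2 fold changes were 0.19 in TP5 (0.05 to 0.34), -0.17 in sFD17 (counting interval of the ratio 0.792 to 0.999) and 0.25 in FR17 (0.12 to 0.39). Per count of Cd86, the libraries held 4.55 counts of Cd80 in Ctrl, 3.15 in TP5, 5.36 in sFD17 and 2.12 in FR17. This balance, which does not depend on the scaling between libraries, was thus lowest in FR17, with an interval of 1.98 to 2.28 that does not reach the interval of any other library. Cd86 lies on chromosome 16 as well (GRCm38, 36603869 to 36666081, reverse strand).

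Pdcd1lg2, the second ligand of PD-1, lies next to Cd274 on chromosome 19 (GRCm38, 29410919 to 29471157, forward strand) and was read far less. It had 98 counts (5.80 CPM) in Ctrl, 164 (9.35 CPM) in TP5, 89 (6.74 CPM) in sFD17 and 108 (4.70 CPM) in FR17. TP5 was the highest library, and the intervals of the other three overlapped. The log2 fold change was 0.68 in TP5 (0.32 to 1.06), and the intervals for sFD17 (0.21) and FR17 (-0.30) include 0. Per count of Pdcd1lg2, Cd274 had 55.1 counts in Ctrl, 25.9 in TP5, 128 in sFD17 and 38.4 in FR17. Their balance thus differed by library, with sFD17 at the upper and TP5 at the lower end.

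Cd80, Cd86 and Pdcd1lg2 are known from dendritic cells and macrophages, whose markers differed between the libraries as well. The 10 dendritic cell markers, summed, were highest in TP5, at 1.72 times the control with 9 of 10 higher, with FR17 at 1.38 and sFD17 at 1.06 times. Cd209a, the most abundant of them, had 1388, 2753, 1031 and 2399 counts in Ctrl, TP5, sFD17 and FR17. The 12 macrophage markers were at 0.791, 0.360 and 1.28 times the control in TP5, sFD17 and FR17, and 12 of 12 were lower in sFD17. Chil3, the most abundant, had 45908, 47257, 12852 and 90730 counts. The 6 monocyte markers, summed, were at 1.03, 1.23 and 0.906 times the control, a sum carried by Nr4a1, while 4, 3 and 5 of the 6 were higher than the control. In bulk libraries, fewer cells of a type and less RNA per cell cannot be told apart, and the part of these cells in the ligand counts was not tested.

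Per 1000 counts on the dendritic cell and macrophage markers together, Cd86 had 6.74 counts in Ctrl, 9.37 in TP5, 15.6 in sFD17 and 6.25 in FR17. Cd80 had 30.7, 29.5, 83.9 and 13.3 counts on the same scale. Pdcd1lg2 had 0.920, 1.80, 2.79 and 0.580 counts. By this measure each was highest in sFD17 and lowest in FR17, where the interval of Cd86 overlapped that of the control. The measure leans on the abundant macrophage markers, and with dendritic cell markers alone the control library was highest for Cd86, at 204 counts per 1000, followed by FR17 at 177, sFD17 at 171 and TP5 at 135. Cd80 then had 930 counts per 1000 in Ctrl, 427 in TP5, 917 in sFD17 and 375 in FR17. Pdcd1lg2 had 27.9, 26.1, 30.5 and 16.4. The sFD17 library was then no longer apart from the control for Cd80 and Pdcd1lg2, whose intervals overlapped.

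The receptors, which are known mainly from T and NK cells, were read at low levels in these sorted cells. Havcr2, the gene of TIM-3, which myeloid cells carry too, was the exception, with 824 counts (48.8 CPM) in Ctrl, 1154 (65.8 CPM) in TP5, 612 (46.4 CPM) in sFD17 and 1150 (50.1 CPM) in FR17. After TMM scaling only TP5 stood apart from the other libraries, with a log2 fold change of 0.43 (0.30 to 0.56). The values for sFD17 (-0.07) and FR17 (0.04) have intervals that include 0. Per 1000 neutrophil marker counts, Havcr2 had 1.46 counts in Ctrl, 1.78 in TP5, 1.05 in sFD17 and 1.67 in FR17. On that scale sFD17 lay below the others, and the intervals of TP5 and FR17 overlapped. Havcr2 lies on chromosome 11 (GRCm38, 46454935 to 46481255, forward strand).

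Ctla4 was highest in FR17. It had 125 counts (7.40 CPM) in Ctrl, 168 (9.58 CPM) in TP5, 88 (6.67 CPM) in sFD17 and 341 (14.9 CPM) in FR17. The interval of the FR17 library, 13.3 to 16.5 CPM, lay above those of the other three. The log2 fold change was 0.99 in FR17 (0.71 to 1.31), just short of 2-fold, 0.37 in TP5 (0.03 to 0.72) and -0.15 in sFD17, whose interval includes 0. Relative to its ligand Cd86, Ctla4 had 0.174 counts per count in Ctrl, 0.197 in TP5, 0.176 in sFD17 and 0.293 in FR17. Ctla4 lies on chromosome 1 (GRCm38, 60887000 to 60915832, forward strand).

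Lag3 had 110 counts (6.51 CPM) in Ctrl, 191 (10.9 CPM) in TP5, 75 (5.68 CPM) in sFD17 and 174 (7.58 CPM) in FR17. As for Havcr2 and Pdcd1lg2, TP5 was the highest library. The log2 fold change was 0.73 in TP5 (0.40 to 1.09), and the intervals for sFD17 (-0.19) and FR17 (0.22) include 0. Lag3 lies on chromosome 6 (GRCm38, 124904361 to 124911705, reverse strand).

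Tigit and Pdcd1 had the fewest counts. Tigit had 16 counts (0.947 CPM) in Ctrl, 27 (1.54 CPM) in TP5, 22 (1.67 CPM) in sFD17 and 62 (2.70 CPM) in FR17. FR17 was the highest library, with a log2 fold change of 1.41 and an interval of 0.70 to 2.40, and the intervals for TP5 (0.64) and sFD17 (0.75) include 0. Pdcd1, the gene of PD-1, had 17 counts (1.01 CPM) in Ctrl, 28 (1.60 CPM) in TP5, 28 (2.12 CPM) in sFD17 and 45 (1.96 CPM) in FR17. The control was its lowest library, but the intervals of all 4 libraries overlapped. Its log2 fold change was 1.00 in sFD17 (0.16 to 2.04), a little short of 2-fold before rounding, 0.89 in FR17 (0.13 to 1.86) and 0.61 in TP5, where the interval includes 0. Tigit lies on chromosome 16 (GRCm38, 43648867 to 43664146, reverse strand) and Pdcd1 on chromosome 1 (94038305 to 94052553, reverse strand).

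**Figure D2:**
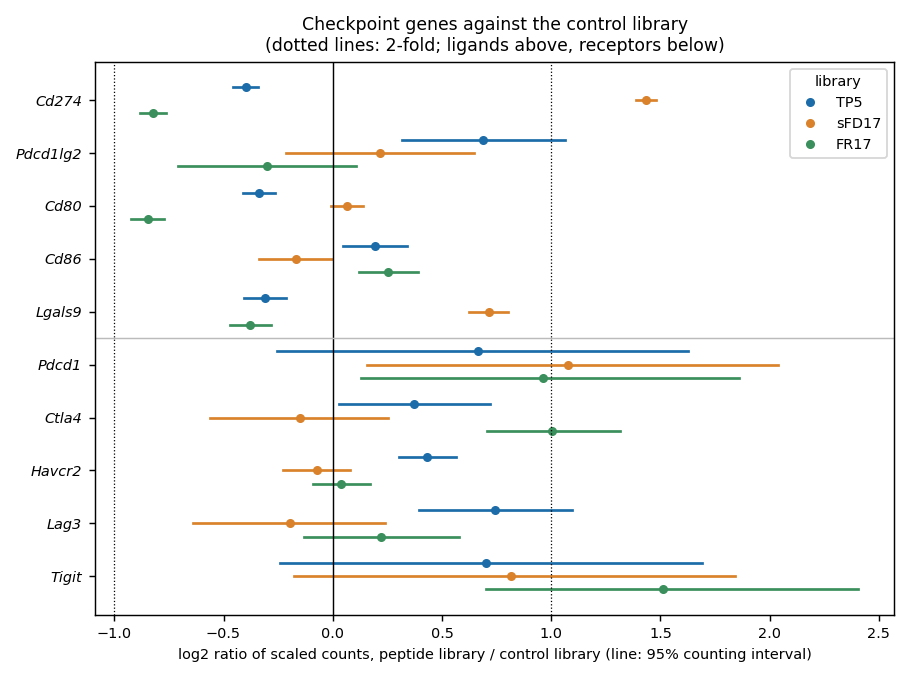
Log2 ratio of scaled counts of each checkpoint gene in the TP5, sFD17 and FR17 libraries to the control library (points), with the 95% counting interval of the ratio (lines) and dotted lines at 2-fold; the ratios carry no prior count, so genes with few counts sit slightly farther from 0 than their fold changes in the text. Cd274 in sFD17 is the one gene whose whole interval lies past 2-fold, and all 5 receptors lie above 0 in TP5 and FR17.

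By a 2-fold difference in log2 CPM, few members stood out. Against Ctrl, 0 of 10 members were at least 2-fold higher and 0 lower in TP5, where 3.2% of all genes tested were higher and 4.99% lower by that size. In sFD17, 1 of 10 (Cd274) was at least 2-fold higher and 0 lower, beside 5.32% and 6.47% of all genes. In FR17, 1 of 10 (Tigit) was at least 2-fold higher and 0 lower, beside 3.92% and 3.58%. Such differences were less frequent among genes with more counts. Among genes with a mean of at least 100 counts, such as Cd274, 2.09% were at least 2-fold higher in sFD17, and among those below 100, such as Tigit, 8.80% were so in FR17.

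Differences beyond counting error alone were common in these libraries. The 95% counting interval of the ratio to Ctrl lay above 1 for 5 members and below 1 for 3 in TP5, where this held for 18.1% and 18.8% of all genes. It lay above 1 for 3 and below 1 for 1 in sFD17 (22.8% and 22.1% of all genes), and above 1 for 4 and below 1 for 3 in FR17 (21.4% and 24.3%). The median log2 fold change of the 5 ligands in the TP5, sFD17 and FR17 libraries was -0.31, 0.21 and -0.38, and that of the 5 receptors 0.61, -0.07 and 0.89. The medians over all genes were 0.00, -0.03 and 0.02. The 3 comparisons share the control library. All 5 receptors were above the control in TP5 and in FR17, with each scaling of whole libraries tried and with neutrophil markers as the scale, and 2 of 5 in sFD17. Relative to T cell markers, given next, Havcr2 and Lag3 were below the control in FR17.

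The receptors were read beside the markers of the lymphocytes that are known to carry them. The 17 T cell markers, summed, had 1993 counts in Ctrl, 2047 in TP5, 1095 in sFD17 and 5214 in FR17, which was 0.989, 0.703 and 1.93 times the control after scaling. Higher than the control were 12 of 17 in TP5 (median log2 fold change 0.17), 7 in sFD17 (-0.18) and 17 in FR17 (0.94). Of the 17 in FR17, 7 were at least 2-fold higher, beside 3.92% of all genes and 8.80% of those with a mean under 100 counts. Cd2, the most abundant, had 445, 472, 164 and 950 counts. NK cell markers were at 0.749, 0.756 and 2.85 times the control, with Gzma, the gene of granzyme A, at 247, 147, 137 and 1090 counts. The 4 markers of regulatory T cells, which are known for high CTLA-4, were at 1.53, 1.45 and 2.84 times the control, with 2, 1 and 3 of the 3 tested higher. The sums in TP5 and sFD17 were raised by Il2ra, the interleukin 2 receptor alpha chain of activated and regulatory T cells, with 20, 75, 51 and 122 counts in Ctrl, TP5, sFD17 and FR17. Foxp3, their defining transcription factor, had 10, 8, 7 and 53 counts, and both were named here after their values were seen. B cell markers were at 1.69, 1.23 and 1.38 times the control, mast cell and basophil markers at 1.17, 1.57 and 1.62 times, and group 2 lymphoid cell markers at 1.53, 0.962 and 1.36 times. Of the 6 melanoma markers 2, Tyr and Tyrp1, had no count in any library, and the sum, carried by Mitf, was at 0.975, 0.658 and 0.881 times the control.

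**Figure D3:**
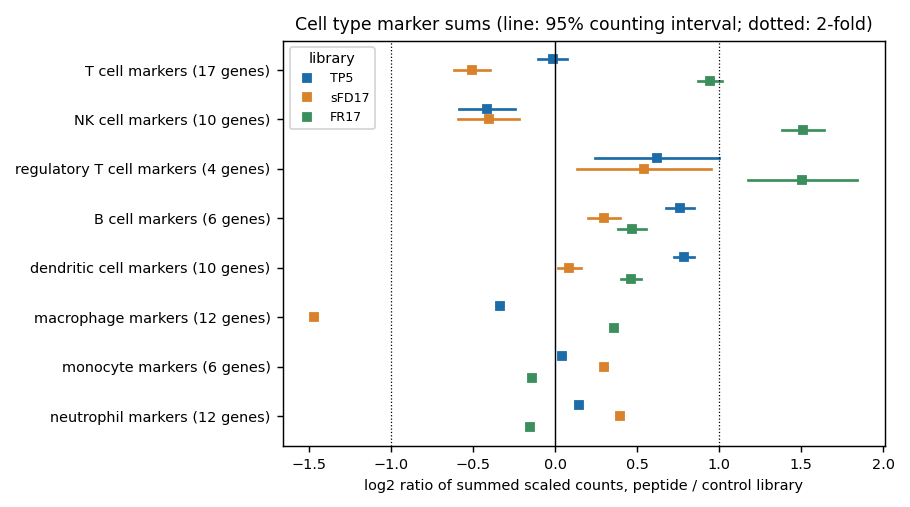
Log2 ratio of summed scaled counts on cell type marker lists in the TP5, sFD17 and FR17 libraries to the control library (squares), with 95% counting intervals (lines, where wider than the symbol) and dotted lines at 2-fold. T, NK and regulatory T cell markers are highest in FR17, dendritic cell and B cell markers in TP5, and macrophage markers are lowest in sFD17.

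Set against the T cell markers of the same library, the higher FR17 values of Ctla4 and Pdcd1 were close to the control. Per 1000 T cell marker counts, Ctla4 had 62.7 counts in Ctrl (51.9 to 75.2), 82.1 in TP5 (69.7 to 96.1), 80.4 in sFD17 (63.9 to 99.9) and 65.4 in FR17 (58.4 to 73.0). Pdcd1 had 8.53 in Ctrl (4.96 to 13.7), 13.7 in TP5 (9.07 to 19.8), 25.6 in sFD17 (16.9 to 37.2) and 8.63 in FR17 (6.29 to 11.6). Tigit had 8.03, 13.2, 20.1 and 11.9. On this scale the FR17 library held no more Ctla4 or Pdcd1 than counting error allows beside the control, and Pdcd1 was highest in sFD17, the library with the fewest T cell marker counts.

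Havcr2 had 413 counts per 1000 T cell marker counts in Ctrl, 564 in TP5, 559 in sFD17 and 221 in FR17. Lag3 had 55.2, 93.3, 68.5 and 33.4. Both were lowest in FR17 by this measure, with intervals below those of the other libraries. Havcr2 itself was at 48.8 CPM in Ctrl and 50.1 CPM in FR17, while the T cell markers were at 1.93 times the control. Myeloid cells carry TIM-3 too, so this ratio does not give its level per T cell. For Lag3 the TP5 interval, 80.0 to 108, lay above the control interval of 45.1 to 66.9. A sort on CD11b and Ly6g should remove lymphocytes, and the part of T and NK cells in the receptor counts was not tested.

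**Figure D4:**
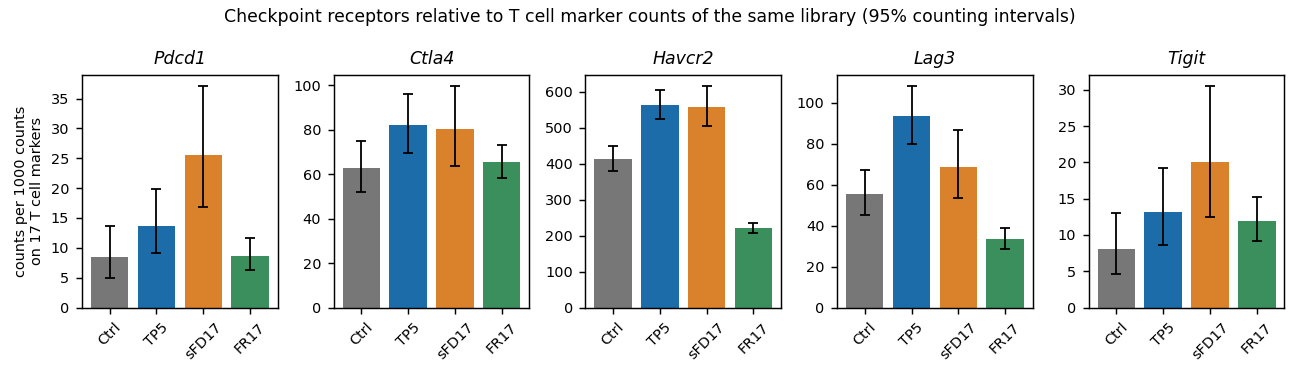
Counts of each checkpoint receptor per 1000 counts on 17 T cell markers of the same library, with 95% counting intervals; each bar is 1 library. Ctla4 in FR17 (65.4) is at the level of the control (62.7), Havcr2 and Lag3 are lowest in FR17, and Pdcd1 is highest in sFD17 (25.6).

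The peptides were given at the same dose and collected on the same day, so that the libraries can be set against each other. FR17 and sFD17 both assemble and differ in the order of the pentapeptide. In FR17 against sFD17, Cd274 was 4.78-fold lower (log2 fold change -2.26, -2.31 to -2.21) and Lgals9 2.13-fold lower (-1.09, or -0.54 with neutrophil markers as the scale), while Ctla4 was 2.21-fold higher (1.14, 0.81 to 1.51). Thus 1 member of 10 was at least 2-fold higher and 2 were lower, in a comparison in which 11.3% of all genes were higher and 10.8% lower by that size. Cd80 was 1.88-fold lower (-0.91, -0.99 to -0.83) and Pdcd1lg2 1.42-fold lower (-0.51, -0.94 to -0.10), the latter turning to 0.03 with neutrophil markers as the scale. On that scale Cd274 and Cd80 stayed lower in FR17, by less than after TMM scaling. Per 1000 neutrophil marker counts, Cd274 had 6.002 counts in FR17 and 19.61 in sFD17, and Cd80 had 3.579 and 4.602. Cd86 was 1.34-fold higher (0.42) and Lag3 1.33-fold higher (0.41). For Pdcd1 (-0.11, -0.83 to 0.62), Havcr2 (0.11, -0.03 to 0.26) and Tigit (0.66, -0.03 to 1.47) the interval includes 0.

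FR17 and TP5 both carry the active pentapeptide, and FR17 adds the assembling backbone. In FR17 against TP5, 0 of 10 members were at least 2-fold higher or lower, beside 7.04% and 2.88% of all genes. Pdcd1lg2 came nearest, at a log2 fold change of -0.97 (-1.35 to -0.63). Cd274 was at -0.43, Cd80 at -0.51, Havcr2 at -0.39 and Lag3 at -0.52, all lower in FR17 with intervals that do not include 0. Ctla4 (0.63, 0.36 to 0.91) and Tigit (0.77, 0.14 to 1.52) were higher in FR17. For Cd86 (0.06, -0.07 to 0.19), Lgals9 (-0.07, -0.16 to 0.03) and Pdcd1 (0.28, -0.42 to 1.03) the interval includes 0.

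TP5 is the active pentapeptide alone, and sFD17 is the assembling peptide without it. In sFD17 against TP5, 2 of 10 members were at least 2-fold higher, Cd274 (1.83, 1.78 to 1.88) and Lgals9 (1.02, 0.93 to 1.12, or 0.77 with neutrophil markers as the scale), and 0 were lower, beside 6.74% and 5.64% of all genes. Lag3 was lower in sFD17 by a log2 fold change of -0.92 (-1.34 to -0.55), Ctla4 by -0.52, Havcr2 by -0.50, Pdcd1lg2 by -0.46 and Cd86 by -0.36. Cd80 was higher at 0.40. With neutrophil markers as the scale, Cd274 and Cd80 stayed higher in sFD17, by less than after TMM scaling. Per 1000 neutrophil marker counts, Cd274 had 19.61 counts in sFD17 and 6.550 in TP5, and Cd80 had 4.602 and 4.135. The intervals for Pdcd1 (0.39) and Tigit (0.11) include 0.

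Of 15 other ligands of checkpoint receptors listed, 13 were tested, Vtcn1 was below the count minimum and Fgl1 had no count. At least 2-fold lower were 2 of 13 in TP5 (Cd276 and, outside the naming rule, Nectin3) and 0 in the other libraries, and 0 were higher. In TP5, 4.99% of all genes were lower and 3.2% higher by that size. The list had medians of -0.05 for TP5, 0.16 for sFD17 and -0.11 for FR17. Cd276, the gene of B7-H3, had 89, 44, 42 and 94 counts in Ctrl, TP5, sFD17 and FR17 and a log2 fold change of -1.04 in TP5. Pvr, the poliovirus receptor bound by TIGIT, had 340, 576, 393 and 419 counts and was at 0.70 in TP5. Tnfrsf14, the ligand of BTLA also known as HVEM, had 310, 286, 422 and 241 counts and was at 0.80 in sFD17 and -0.80 in FR17. Ceacam1, a further ligand of TIM-3, had 2475, 3564, 3152 and 2750 counts and was at 0.47 in TP5 and -0.29 in FR17. Clec2d, which encodes a ligand of NK cell receptors, had 1368, 1364, 1851 and 1819 counts and was at 0.79 in sFD17.

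Of the 18 other checkpoint and costimulatory receptors, all were tested. In FR17, 6 of 18 were at least 2-fold higher and 0 lower, with a median of 0.49 beside 0.02 over all genes, of which 3.92% were higher and 3.58% lower by that size (8.80% higher among genes with a mean under 100 counts). Icos, a costimulatory relative of CD28 on T cells, had 89, 141, 70 and 331 counts and was at 0.60 in TP5 and 1.43 in FR17. Cd96, a T and NK cell receptor for the poliovirus receptor, had 12, 16, 16 and 77 counts (2.07 in FR17), and Klrc1, an inhibitory NK cell receptor, had 19, 14, 7 and 101 counts (1.87 in FR17). These genes were highest where T and NK cell markers were highest, and the part of those cells was not tested. In TP5, 1 of 18 was at least 2-fold higher, Cd226, the activating competitor of TIGIT, with 73, 170, 61 and 141 counts and a log2 fold change of 1.14, and 1 was lower, beside 3.2% and 4.99% of all genes. Tnfrsf18, the costimulatory receptor GITR, had 64, 102, 51 and 139 counts and was at 0.60 in TP5.

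In sFD17, 0 of 18 were at least 2-fold higher and 1 was lower, Cd200r1, an inhibitory receptor of myeloid cells, with 278, 326, 107 and 463 counts and a log2 fold change of -1.01, beside 5.32% and 6.47% of all genes. The myeloid inhibitory receptor Lilrb4a was by far the most read of the list, with 30385, 23746, 28008 and 21819 counts, and was at -0.41 in TP5, 0.24 in sFD17 and -0.92 in FR17. With it, the summed level of the 18 genes in FR17 was 0.674 times the control, although 13 of 18 were higher. Lair1, an inhibitory receptor for collagen, had 1356, 1242, 1234 and 1832 counts and was at 0.22 in sFD17.

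The 16 genes listed for their control of Cd274 hold the interferon-γ receptor and its signalling (Ifngr1, Jak1, Irf1 and others), further transcription factors and proteins that stabilise or degrade PD-L1. None of the 16 was at least 2-fold from the control in any peptide library. Of all genes, 3.2% were higher and 4.99% lower by that size in TP5, 5.32% and 6.47% in sFD17, and 3.92% and 3.58% in FR17. In sFD17, 11 of 16 were above the control, with a median of 0.26 beside -0.03 over all genes, and in FR17 14 of 16 were below it, with a median of -0.28 beside 0.02. The summed level of the list was 1.31 times the control in sFD17 and 0.760 times in FR17, beside 1.31 and 0.898 times for the neutrophil markers, whose part in these values was not tested. Irf1, the interferon-induced factor that acts on the Cd274 promoter, had 5873, 4230, 7347 and 5719 counts and was at -0.53 in TP5 and 0.68 in sFD17. Stat3 had 10433, 9668, 12503 and 8883 counts and was at -0.67 in FR17, where Hif1a and Cmtm6 were both at -0.51. Cmtm6 keeps PD-L1 at the cell surface, and its relative Cmtm4 had 149, 100, 62 and 212 counts and was at -0.62 in TP5 and -0.89 in sFD17.

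Between FR17 and sFD17, 3 of the 16 were at least 2-fold lower, Stat3 (-1.29) and Irf1 (-1.16) among them, and 0 were higher, beside 10.8% and 11.3% of all genes. The median of the list there was -0.72 beside 0.07 over all genes. These values stand beside that of Cd274 in the same pair of libraries, -2.26. The 12 neutrophil markers, summed, were at 0.683 times in FR17 against sFD17, with 11 of 12 lower and a median of -0.51. Their part in the values of the list was not tested.

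**Figure D5:**
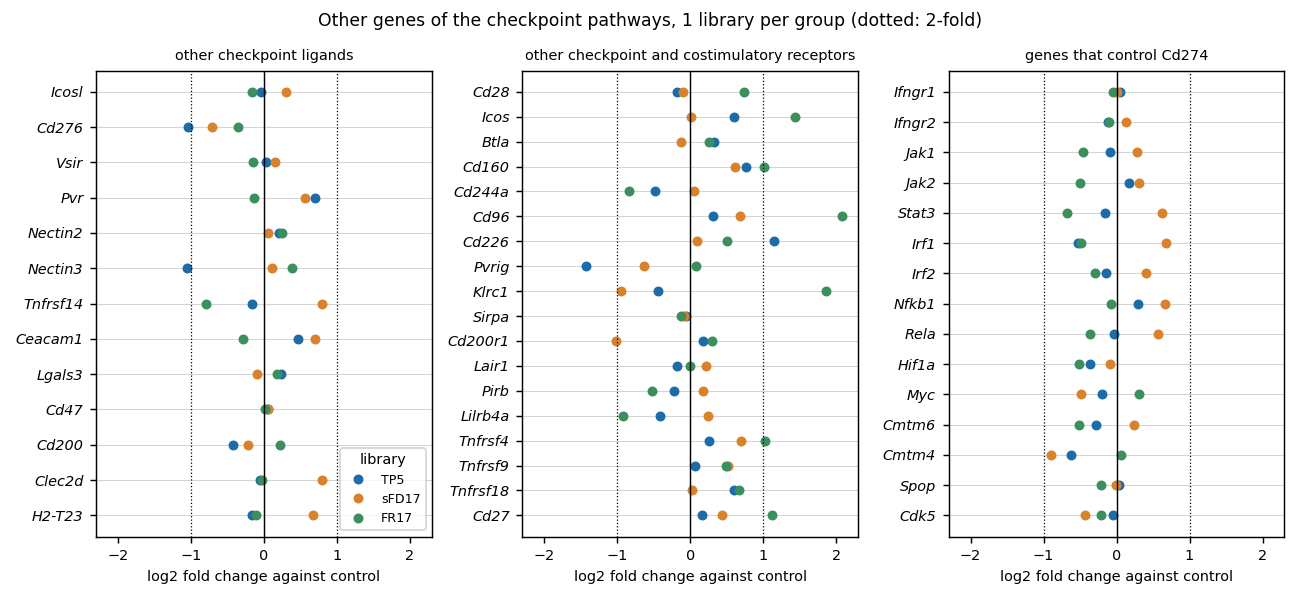
Log2 fold change against the control library for other checkpoint ligands, other checkpoint and costimulatory receptors and genes that control Cd274, with 1 point per peptide library and dotted lines at 2-fold. The genes shown that control Cd274 lie within 2-fold of the control, as do the ligands except Cd276 and Nectin3 in TP5, and 6 of 18 receptors lie past 2-fold in FR17.

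Genes with the nearest pattern to 3 members were sought among 9800 genes with at least 50 counts in every library, by the Euclidean distance of mean-centred log2 CPM over the 4 libraries. With 4 points a near pattern is easily found, so these are descriptions. Nearest to Cd274 were Perm1 (distance 0.161), Gm44292 (0.161) and Oas2 (0.205). Oas2, an interferon-induced sensor of double-stranded RNA, had 1931, 1389, 4371 and 1625 counts in Ctrl, TP5, sFD17 and FR17. Nearest to Cd86 were Cops9 (0.0225), Smu1 (0.0297) and Eef1g (0.0298). Nearest to Havcr2, the receptor with the most counts, were 9430038I01Rik (0.0317), Tex30 (0.0462) and H2afz (0.0529).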

How the data were processed

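For 4 mRNA libraries of pooled sorted cells the authors deposited 1 table of raw counts, the reads on each gene with no normalization, beside gene coordinates and lengths. The submitters' processing notes name HISAT2 2.0.5, StringTie 1.3.3b, featureCounts 1.5.0-p3, edgeR 3.18.1 and GRCm38.p6. Per the paper, extraction used TRIzol and library preparation the NEBNext Ultra Directional kit. The strand setting of the counting is not given in the sources used here.

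A gene was used if any library held 10 or more counts of it (16369 genes), and 13466 reached 10 in every library. Log2 fold changes were differences of edgeR 4.0.16 log2 CPM (R 4.3.3, TMM factors from the 4 libraries, prior count 2), and a gene was called at 2-fold. Ratios carry exact 95% binomial (Clopper-Pearson) intervals and levels exact Poisson intervals. With 1 library per group the quasi-likelihood test could not be run, and no p-values are given. Intervals and floors cover counting error only. Gene lists were summed as counts.

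The genes named were the 10 members, Itgam and Ly6g, in each pathway list the 3 with the largest change per peptide library that reached 50 counts in that library or the control, the most abundant T cell, NK cell, dendritic cell and macrophage marker, and the 3 nearest patterns to Cd274, Cd86 and the most read receptor. Nectin3, Foxp3, Il2ra, Nr4a1, Mitf, Tyr, Tyrp1, Vtcn1 and Fgl1 were named after their values were seen. A gene that this rule selects is not reported here and not drawn. Members, lists and rules were chosen with earlier results of these data known. Folds, intervals and the exact test were tested on simulated data. Alternatives were DESeq2 1.42.0 size factors, library size alone, factors from each pair, no filter, 10 counts in every library, a prior count of 0.5, a 1.5-fold rule, a 2-fold rule on the whole interval, edgeR's exact test and other marker sets. Of the listed symbols, 0 were absent from the table, and 0 columns of samples were left unmapped. Promoter windows are from RefSeq, and overlaps of exons are from GENCODE M21.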

Additional observations from a re-analysis of the deposited data

How the results depend on the processing

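Counts of members past 2-fold are small and several members lie near the limit. Higher than Ctrl in sFD17 was 1 member, and 2 with DESeq2 size factors or a prior count of 0.5 (Pdcd1 joined Cd274). Higher in FR17 was 1, and 2 without a filter, with 10 counts in every library or with a prior count of 0.5, 3 by library size alone, and 0 by edgeR's exact test (137 of 16369 genes higher at an unadjusted p under 0.05, and 0 genes in either direction after Benjamini-Hochberg adjustment) or where the whole interval had to pass 2-fold. The exact test has no replicates behind it: its dispersion (common coefficient of variation 0.267) came from the 4 libraries taken as 1 group, so it includes the differences between treatments, and a call it does not make is no sign of a weaker difference. In FR17 against sFD17 the 1 higher and 2 lower members became 2 and 1 by library size alone, the lower count was 1 without a filter, and the higher count was 0 by the whole interval. In sFD17 against TP5 the 2 higher members became 1 by library size alone, without a filter and by the whole interval, and the 0 lower became 1 by library size alone. A 1.5-fold rule gave 4 higher in TP5, 4 higher in sFD17, 3 higher and 2 lower in FR17 against Ctrl, 2 higher and 3 lower in FR17 against sFD17, 2 higher and 1 lower in FR17 against TP5, and 2 higher and 1 lower in sFD17 against TP5. Of all genes, 8.98% were higher and 11.8% lower by 1.5-fold in TP5, 13.4% and 15.6% in sFD17 and 11.0% and 11.7% in FR17 against Ctrl, 24.7% and 21.3% in FR17 against sFD17, 14.4% and 10.1% in FR17 against TP5, and 15.4% and 16.4% in sFD17 against TP5.

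For the other ligands, the 2 changed in TP5 became 1 by library size alone and 0 by the exact test or the whole interval, the 0 in sFD17 became 1 without a filter and 5 at 1.5-fold, and the 0 in FR17 became 1 at 1.5-fold. For the other receptors, the 2 in TP5 became 1 with 10 counts in every library, 5 at 1.5-fold and 0 by the exact test or the whole interval. The 1 in sFD17 became 0 with DESeq2 size factors or the whole interval, 2 by library size alone or a prior count of 0.5, and 6 at 1.5-fold. The 6 in FR17 became 3 by the exact test or the whole interval and 10 at 1.5-fold. For the genes that control Cd274, the 0 in TP5 and in FR17 became 1 at 1.5-fold, and the 0 in sFD17 became 1 by library size alone and 5 at 1.5-fold.

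Of 360 alternative log2 fold changes of members, 326 stayed within their counting interval and 34 did not, 28 by library size alone, which moves the median over all genes to 0.05, -0.23 and 0.26 in TP5, sFD17 and FR17, and 6 without a filter. Signs changed for Cd80 in sFD17 against Ctrl, Pdcd1 in FR17 against sFD17 and Tigit in sFD17 against TP5 by library size alone, and for Lgals9 in FR17 against TP5 by that and without a filter. With neutrophil markers as the scale, added after seeing the data, 33 of 60 values left the interval and 6 changed sign, the 4 just named and Pdcd1lg2 in sFD17 against Ctrl (-0.18) and in FR17 against sFD17 (0.03). The cause of these shifts was not tested. No paired analysis was possible because each group has 1 library, and no library can be left out. Depth limits Pdcd1 and Tigit, with 16 to 62 counts per library.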
